A study of Rattus norvegicus with 8 samples.

Results

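Haemoglobin carries oxygen in red blood cells as a tetramer of alpha and beta globin chains, each holding 1 haem group. Hba-a1 and Hbb encode adult chains of the rat. Haem synthesis starts in mitochondria with 5-aminolevulinate synthase, made by Alas2 in erythroid cells and by Alas1 in other tissues, and Slc4a1 encodes band 3, the chloride and bicarbonate exchanger that anchors the red cell membrane to its skeleton. The 5 genes Hba-a1, Hbb, Alas2, Alas1 and Slc4a1 were described here in full-thickness rat skin. They were chosen with the STZ against sham results of these arrays known, so their own changes are a description without a test. Probes were matched to genes by RefSeq accession, and 4 of the 5 genes had 1 probe each among 24684 probes, 14294 of which matched 13903 named genes. Alas1 had no matched probe and was not analysed here.

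The tested skin came from male Sprague-Dawley rats injected intraperitoneally at 4 weeks of age with streptozotocin (STZ), a toxin of pancreatic beta cells, at 60 mg/kg. The comparison skin came from male rats of the same strain and age given sodium citrate solution as sham treatment. Skin of both groups was taken 4 weeks later, at 8 weeks of age, and the labels list 4 STZ and 4 sham samples. The labels also speak of a wound made after that period, and whether the profiled skin was wounded, whether blood was flushed from it, and how many rats an array stands for was not stated in the labels.

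Total RNA was hybridised to 1-colour Agilent arrays. In each group, replicate 3 held the array position of replicate 1, and replicate 4 that of replicate 2, in a second scan of the slide. Over probes with at least 3 spots, the spots' deviations from their probe mean correlated between such samples at 0.987 to 0.995, against 0.397 to 0.755 between samples of different arrays. The rescans were averaged, which left 2 arrays per group (n = 2), called array 1 (replicates 1 and 3) and array 2 (replicates 2 and 4). The 75th percentile of spot intensity was 1481 and 1496 on STZ array 1, 606 and 624 on STZ array 2, and 1138 to 1336 on the sham arrays. STZ array 2 was the dimmest and had the most probes well above background, 22759 and 22889 of 24684, against 20267 to 21430 in the other samples. The dermal collagen genes Col1a2 and Col3a1, which mark skin, averaged log2 levels of 7.64 ± 0.62 and 7.95 ± 0.76 in STZ skin, against 7.27 ± 0.07 and 7.35 ± 0.15 in sham skin (SD, n = 2). Levels are log2 processed intensity minus the log2 of that file's 75th percentile, here and below. The change of the median probe was 0.227 (log2, STZ minus sham), and log2 changes are printed from here on with that value subtracted. The p-values and the comparison of both STZ with both sham arrays use the change before this subtraction.

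The 250 bases upstream of the RefSeq start of Hba-a1 (chr10:15842581-15842830, GRCr8, minus strand) and of Hbb (chr1:167663722-167663971, GRCr8, minus strand) are printed because these globin genes are transcribed from separate chromosomes and were lower together in STZ skin. Capitals mark 4 motifs on either strand. CACCC is the core of the sites of KLF1-type factors, CCAAT is a common promoter box, GATAA is the core of GATA factor sites and ATAAA is a TATA-like box. No 2 marked motifs overlap here, though in Hbb a reversed and a forward CCAAT adjoin.
Hba-a1: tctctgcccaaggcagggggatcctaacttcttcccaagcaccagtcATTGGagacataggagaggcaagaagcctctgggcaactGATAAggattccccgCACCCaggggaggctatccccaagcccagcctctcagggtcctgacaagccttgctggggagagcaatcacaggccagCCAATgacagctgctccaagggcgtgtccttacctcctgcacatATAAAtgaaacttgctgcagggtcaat
Hbb: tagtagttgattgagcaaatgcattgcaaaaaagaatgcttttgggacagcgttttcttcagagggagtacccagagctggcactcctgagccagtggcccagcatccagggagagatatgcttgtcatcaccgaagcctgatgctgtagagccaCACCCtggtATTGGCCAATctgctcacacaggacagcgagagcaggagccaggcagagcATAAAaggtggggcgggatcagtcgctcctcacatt
The last 120 bases before the start are printed for the adult alpha genes Hba-a2 (chr10:15829139-15829258) and Hba-a3 (chr10:15816944-15817063) and the adult beta genes Hbb-b1 (chr1:167643521-167643640) and Hbb-bs (chr1:167631631-167631750), all on the minus strand of GRCr8, because their probes are compared with those of Hba-a1 and Hbb below.
Hba-a2: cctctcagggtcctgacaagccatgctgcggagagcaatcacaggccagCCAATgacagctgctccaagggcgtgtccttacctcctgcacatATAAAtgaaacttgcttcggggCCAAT
Hba-a3: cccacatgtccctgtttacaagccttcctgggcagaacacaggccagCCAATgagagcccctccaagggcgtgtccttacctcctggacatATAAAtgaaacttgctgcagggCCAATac
Hbb-b1: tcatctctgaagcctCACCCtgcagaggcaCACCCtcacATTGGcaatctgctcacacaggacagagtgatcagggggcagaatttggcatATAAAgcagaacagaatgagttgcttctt
Hbb-bs: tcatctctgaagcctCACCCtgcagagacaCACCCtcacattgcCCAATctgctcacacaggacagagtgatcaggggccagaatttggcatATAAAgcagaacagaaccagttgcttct
Over the 250 upstream bases, Hba-a1 and Hba-a2 were 96.4% identical and Hbb-b1 and Hbb-bs 93.6%, while Hbb was 60.9% identical to Hbb-b1 and Hba-a1 49.5% identical to Hbb. CCAAT and ATAAA each occurred in 6 of these 6 windows, against 34% and 39.3% of all 33469 RefSeq windows of that length. CACCC occurred in 5 of 6 (all but Hba-a3), against 49.2%, and GATAA in 2 of 6 (Hba-a1 and Hba-a2), against 23.5%. The motifs CACCC and CCAAT stood together with ATAAA in 5 of 6 globin windows and in 5.5% of all windows. A match is a string of letters and says nothing of a factor's binding in skin.

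The 4 measured genes were lower in STZ skin, by amounts that differed from gene to gene. Both STZ arrays lay below both sham arrays for each of the 4, as they did for 17.9% of the 21529 tested probes, and all 4 had a log2 change at or under −2, as 2.19% of tested probes did. The genes were chosen on this contrast, so these shares carry no weight as evidence. In whole skin, fewer red cells and less RNA per red cell cannot be told apart.

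Hba-a1, an adult alpha globin gene, had processed intensities of 297 and 305 on STZ array 1 and 239 and 255 on STZ array 2. On the sham arrays its intensities were 3728 and 3837 (array 1) and 4926 and 4943 (array 2). All STZ scans were below all sham scans. After scaling, its level was −1.81 ± 0.70 in STZ and 1.81 ± 0.14 in sham skin (SD, n = 2), a log2 change of −3.85 ± 0.52 (SE), or 14.4-fold lower. The wider spread lay in the STZ group, where array 2 stood 0.99 above array 1 after scaling although its raw intensity was lower.

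Hbb, an adult beta globin gene, had the smallest change of the 4. Its intensities were 48878 and 49957 on STZ array 1 and 19592 and 20404 on STZ array 2, against 157189 and 157721 on sham array 1 and 202213 and 206224 on sham array 2. All STZ scans were again below all sham scans. The scaled levels were 5.04 ± 0.02 in STZ and 7.18 ± 0.13 in sham skin (SD, n = 2), so that the raw difference between the STZ arrays closed after scaling. The log2 change was −2.37 ± 0.42 (SE), 5.18-fold lower, with 333 tested probes more negative. No spot was flagged as saturated.

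Alas2, the erythroid enzyme that commits glycine and succinyl-CoA to haem, had intensities of 849 and 863 on STZ array 1 and 228 and 235 on STZ array 2. Its sham intensities were 14698 and 14920 on array 1 and 40788 and 41459 on array 2. The sham arrays themselves differed by 1.29 on the log2 scale after scaling, yet the lower sham array stood above both STZ arrays. Levels averaged −1.10 ± 0.43 in STZ and 4.32 ± 0.91 in sham skin (SD, n = 2). The log2 change was −5.65 ± 0.61 (SE), 50.3-fold lower, and 39 tested probes had a more negative change.

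Slc4a1, the band 3 gene, had the most negative change of the 4 on this scale, but not after normexp background correction with quantile normalization, where it was −5.24 and that of Alas2 −5.35. Its intensities were 128 and 128 on STZ array 1 and 9.88 and 14.5 on STZ array 2, against 3533 and 3664 on sham array 1 and 8003 and 8233 on sham array 2. On STZ array 2 the probe was well above background in 1 of 2 scans, and these scans differed by 0.511 on the log2 scale, while every other rescan pair of the 4 genes differed by at most 0.049. The levels were −4.61 ± 1.52 in STZ and 2.13 ± 0.70 in sham skin (SD, n = 2), a log2 change of −6.97 ± 0.85 (SE), 125-fold lower, with 12 tested probes more negative. Without STZ array 2 (replicates 2 and 4) the change was −5.70, and without STZ array 1 (replicates 1 and 3) it was −8.20, so the size rests on single arrays while the direction does not. With each of the 4 arrays left out in turn, the change was −4.14 to −3.51 for Hba-a1, −2.54 to −2.16 for Hbb and −6.27 to −5.04 for Alas2.

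**Figure D1:**
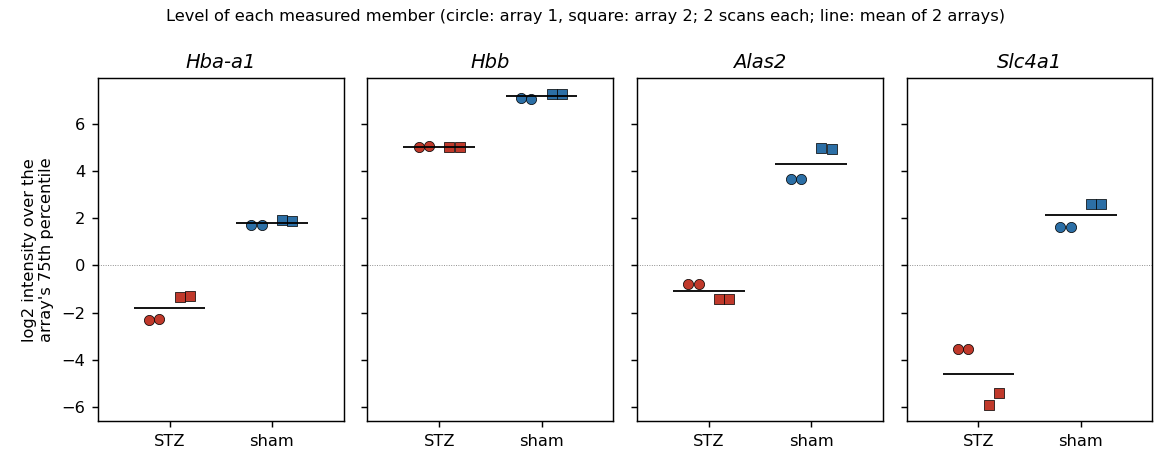
Levels of the 4 measured genes in every scan (vertical axis: log2 intensity, scaled to the 75th percentile of the file; STZ left, sham right; circles array 1, squares array 2; lines the mean of 2 arrays). All STZ points lie below all sham points for each gene, from a mean gap that is smallest for Hbb (5.04 against 7.18) to one that is largest for Slc4a1 (−4.61 against 2.13).

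The log2 changes of the 4 genes differed in size. Ratios between genes within an array do not depend on a scaling factor per array. Alas2 had a log2 change more negative than that of Hbb by a difference of −3.28, and the 4 pairings of an STZ with a sham array gave −4.12 to −2.44. The difference between Slc4a1 and Hbb was −4.60 (−6.05 to −3.14), and that between Hba-a1 and Hbb −1.47 (−1.99 to −0.96). Between the neighbours in size it was −1.32 for Slc4a1 against Alas2 (−2.23 to −0.40) and −1.81 for Alas2 against Hba-a1 (−3.15 to −0.46). Each of these ranges keeps its sign on this scale, but the order of Slc4a1 and Alas2 turned after normexp with quantile normalization, as given above, and the gaps between neighbours vary by several fold with the arrays chosen. Sham array 2 stood above sham array 1 for all 4 genes, by 0.20 and 0.19 for Hba-a1 and Hbb and by 1.29 and 0.99 for Alas2 and Slc4a1. The STZ arrays had no such common order: array 1 was higher for Alas2 (by 0.61) and Slc4a1 (by 2.15), array 2 for Hba-a1, and for Hbb they lay within 0.03.

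The other adult globin genes were lower as well, while the groups overlapped for the embryonic ones. The globin list, like every list here, was chosen with earlier results of these data known, and no probe of the array passed limma's test after Benjamini-Hochberg adjustment (0 of 21529, 0%, smallest adjusted p = 0.0758). At an unadjusted p under 0.05, 3.52% of tested probes were lower and 7.3% higher, the shares to set beside every list count at that level below. Of 10 tested globin genes besides Hba-a1 and Hbb, 4 were lower at that level (all 4 adult alpha or beta genes) and 1 was higher, while the median change of the 10 was −0.13.

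Hbb-bs, a beta globin gene, had levels of 2.93 and 2.28 on the STZ arrays, against 6.66 and 7.25 on the sham arrays. Its log2 change was −4.58 ± 0.50 (SE, unadjusted p = 0.000321, adjusted p = 0.102), beyond that of Hbb. Hba-a2 and Hba-a3, alpha globin genes, had changes of −3.66 ± 0.55 (adjusted p = 0.152) and −3.52 ± 0.56 (adjusted p = 0.161). Hbb-b1 had levels of 4.93 and 4.93 on the STZ arrays, against 7.10 and 7.27 on the sham arrays, with a change of −2.48 ± 0.42 (adjusted p = 0.172). These are near the values of Hbb on each array, and those of Hba-a2 are near the values of Hba-a1. Globin transcripts of 1 cluster are similar in sequence and the probe sequences were not used here, so signal from 1 copy on the probe of another cannot be told apart from expression of both.

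The embryonic beta-like genes Hbg1, Hbe1 and Hbe2 had changes of −0.04 ± 0.84, 0.01 ± 0.78 and 0.81 ± 0.84 (SE), with the STZ and sham arrays overlapping for each. Hbg1 was dim, at −6.47 and −4.32 on the STZ arrays, against −5.99 and −5.17 on the sham arrays. Hbe1 was also dim, at −6.62 and −4.64, against −6.23 and −5.5. Both probes were well above background in 4 of 4 samples of each group, but levels this low limit what a fall could show. Cygb and Ngb, globins of fibroblasts and of neurons, had changes of 0.06 ± 0.48 and −0.21 ± 0.85, also with overlap. Mb, the oxygen store of muscle, was at 3.86 and 3.92 on the STZ arrays, against 1.98 and 2.95 on the sham arrays, a log2 change of 1.2 ± 0.51 (unadjusted p = 0.0389, adjusted p = 0.43). None of these 12 globin genes apart from the 6 adult chains was lower on both STZ arrays. The embryonic genes, Cygb and Ngb were named after their values were seen, to account for every tested globin.

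**Figure D2:**
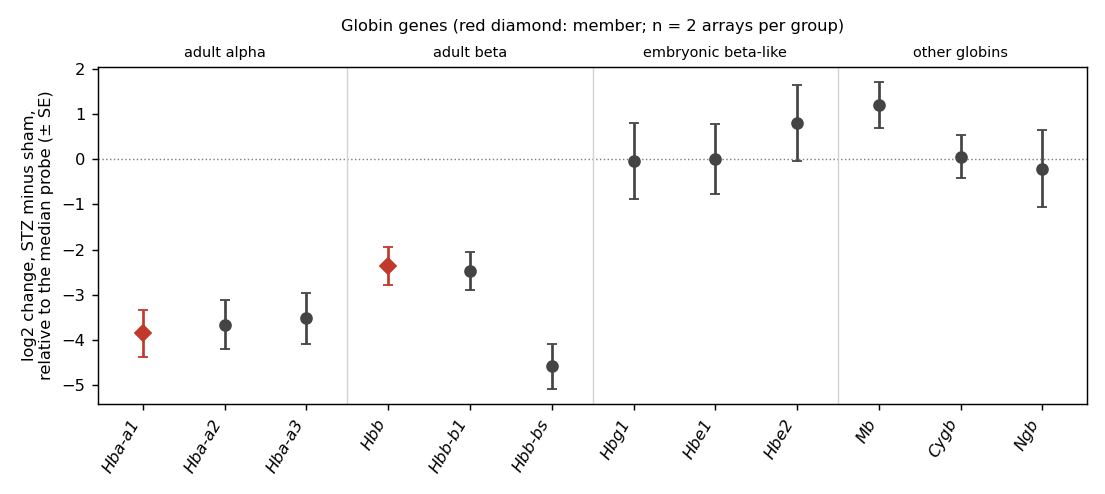
Log2 change of 12 globin genes (vertical axis: STZ minus sham, relative to the median probe; bars ± SE; n = 2 arrays per group; red diamonds Hba-a1 and Hbb). The 6 adult chains lie between −4.58 and −2.37, and the embryonic and other globins between −0.21 and 1.2.

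Within the haem synthesis list the most negative change was that of Alas2, which was chosen on this contrast, so its rank carries no weight as evidence. Alas1, the other gene of the first step, was not analysed here. Of 16 tested genes of the haem synthesis list besides Alas2, 10 had a change below the median probe, against 50% of all tested probes, and 2 were lower at an unadjusted p under 0.05, none higher. The median change of the 16 was −0.54, against 0 by construction for all probes. Alad, which joins 2 aminolevulinate molecules into porphobilinogen, had levels of 1.38 and 1.24 on the STZ arrays, against 2.58 and 2.89 on the sham arrays. Its log2 change was −1.65 ± 0.43 (SE, unadjusted p = 0.0206, adjusted p = 0.337). Later in the pathway the values were 0.13 ± 0.42 for Urod, −0.68 ± 0.55 for Cpox, 0.23 ± 0.46 for Ppox and −0.54 ± 0.49 for Fech, which inserts the iron, with adjusted p from 0.726 to 0.820. Uros was not analysed here.

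Slc25a37, the mitoferrin that brings iron into the mitochondria of erythroid cells, had levels of 1.18 and −0.42 on the STZ arrays, against 2.48 and 2.65 on the sham arrays. Its log2 change was −2.41 ± 0.65 (unadjusted p = 0.0206, adjusted p = 0.337). The STZ arrays differed by more than the sham arrays did, and leaving out arrays in turn or altering the processing gave changes between −3.36 and −1.42. Abcb6, a porphyrin transporter, had a change of −0.90 ± 0.43 (adjusted p = 0.617).

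**Figure D3:**
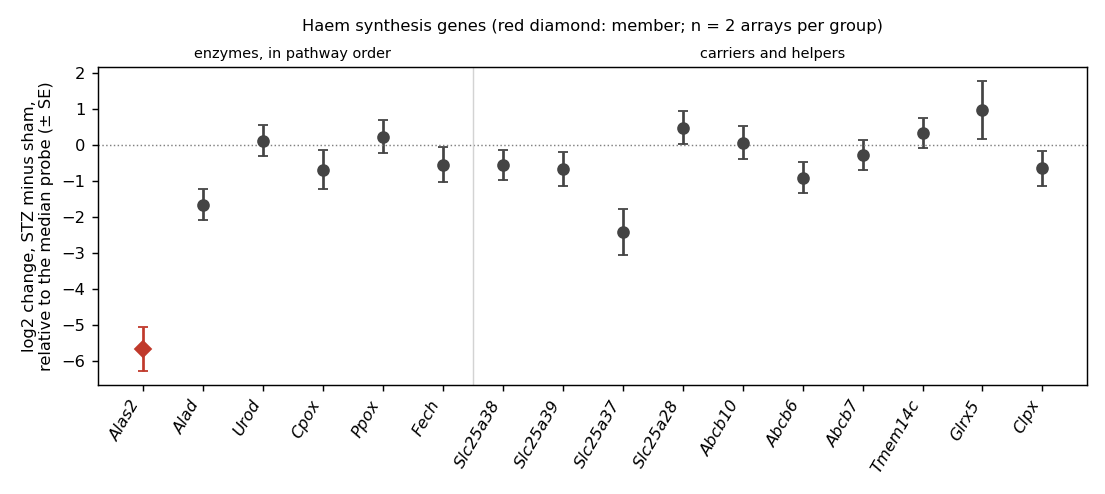
Log2 change of 16 genes of haem synthesis (vertical axis: STZ minus sham, relative to the median probe; bars ± SE; n = 2 arrays per group; red diamond Alas2). Alas2 stands at −5.65, Alad at −1.65 and the other enzymes shown between −0.68 and 0.23, while Slc25a37 is the lowest of the carriers at −2.41.

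Some genes of the red cell membrane were lower to a similar degree as the globins, while others that many cells make were not. Of 13 tested genes besides Slc4a1, 3 were lower at an unadjusted p under 0.05 and none higher, with a median of −0.42. Sptb, the beta spectrin of the red cell skeleton, had levels of −4.57 and −4.10 on the STZ arrays, against −1.03 and −0.32 on the sham arrays, a log2 change of −3.89 ± 0.49 (adjusted p = 0.124). Rhd, a Rh blood group protein, had a change of −3.80 ± 0.78 (adjusted p = 0.213), with sham levels of −0.95 and 0.87 far apart. Epb42, protein 4.2, which binds band 3, had a change of −1.64 ± 0.52 (adjusted p = 0.438), and Stom, stomatin, one of 0.69 ± 0.47 (adjusted p = 0.561). The 2 probes of Add2, beta adducin, disagreed, with changes of −0.30 ± 0.64 for the brighter and −3.22 ± 0.66 for the dimmer one, values picked after they were seen. Rhag, a Rh-associated glycoprotein of the red cell membrane, overlapped between the groups, with a change of −0.56 ± 1.46. STZ array 1 read −7.63 and STZ array 2 read −3.28, against −5.52 and −4.73 on the sham arrays. The probe was well above background in 2 of 4 STZ samples, which limits these readings. Rhag was also named after its values were seen.

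Among erythroid regulators and enzymes, 5 of 20 tested genes were lower at an unadjusted p under 0.05 and none higher, and 10 had both STZ arrays below both sham arrays while 2 had both above, against 17.9% and 26.8% of all tested probes. The median of the 20 was −0.50. Among the 5 lower genes is Car1, named after its values were seen, which was well above background in 0 of 4 STZ samples. Its fitted change, which has no measured STZ level behind it, was −3.2 ± 1.07. After normexp with quantile normalization it was −0.73. Ahsp, the chaperone of free alpha globin, had levels of −2.86 and −2.28 on the STZ arrays, against 0.25 and 1.6 on the sham arrays, a log2 change of −3.73 ± 0.62 (adjusted p = 0.171). Bpgm, which makes the 2,3-bisphosphoglycerate that lowers the oxygen affinity of haemoglobin, had a change of −2.07 ± 0.51 (adjusted p = 0.302). Car2, a carbonic anhydrase, had a change of −2.28 ± 0.71 (adjusted p = 0.412). The size of this change depends on STZ array 2, at −1.71 against 0.12 on STZ array 1. Both lay below the sham arrays, at 1.21 and 1.31, and the change lay between −3.35 and −1.17 over the other settings.

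The transcription factors of erythroid cells did not share a direction. Klf1, which activates the adult beta globin gene, had levels of −2.21 and −1.59 on the STZ arrays, against −1.22 and 0.18 on the sham arrays, a log2 change of −1.6 ± 0.64 (adjusted p = 0.528). Gata1, the central factor of red cell development, had a change of −1.11 ± 0.53 (adjusted p = 0.606). Both STZ arrays lay below both sham arrays for these genes. Lmo2, a partner protein of Gata1 that vessel cells also make, had levels of 1.96 and 1.94 on the STZ arrays, against 1.26 and 0.48 on the sham arrays, a change of 0.86 ± 0.48 (adjusted p = 0.516). Tal1, Nfe2 and Gfi1b, further factors of blood cell development, had changes of 0.61 ± 0.77, 0.6 ± 0.70 and 0.04 ± 1.21, with overlap between the groups for each. The last 4 were named after their values were seen. Epor, the erythropoietin receptor, had a change of 0.50 ± 0.45 (adjusted p = 0.613) also above the median probe. The transferrin receptor gene Tfrc was not analysed here.

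Some genes that bind and break down haemoglobin and haem were higher in STZ skin. Of 11 tested, 4 were higher at an unadjusted p under 0.05 and none lower, while 3 lay below the median probe, and the median was 0.23. Hp, haptoglobin, which binds free haemoglobin, had levels of 0.89 and 1.04 on the STZ arrays, against −1.93 and −1.91 on the sham arrays. Its log2 change was 2.66 ± 0.42 (adjusted p = 0.136), with little spread in either group. Cd163, the macrophage receptor of haptoglobin bound to haemoglobin, had a change of 2.13 ± 0.43 (adjusted p = 0.172), which was 0.63 after normexp background correction with quantile normalization. Hmox1, haem oxygenase 1, which opens the haem ring, had levels of 5.25 and 5.0 on the STZ arrays, against 4.20 and 3.26 on the sham arrays, a change of 1.17 ± 0.51 (adjusted p = 0.439). Flvcr2, a membrane transporter, had a change of 1.54 ± 0.64 (adjusted p = 0.432). The 3 genes below the median probe, named after their values were seen, were the haem transporter gene Slc48a1 at −0.60 ± 0.66, Hmox2, the second haem oxygenase, at −0.21 ± 0.45, and Hpx, which encodes the haem-binding protein hemopexin. Hpx was not well above background in any STZ sample, and its fitted change, which has no measured STZ level behind it, was −0.37 ± 0.62 and was −1.51 after quantile normalization (unadjusted p = 0.0147).

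The list of iron uptake and storage held differences in both directions. Of 18 tested genes, 6 were higher and 1 was lower at an unadjusted p under 0.05, with a median of 0.56. Slc11a1, a metal transporter of phagosomes, had levels of 2.68 and 2.86 on the STZ arrays, against −1.65 and −2.70 on the sham arrays, a log2 change of 4.72 ± 0.53 (adjusted p = 0.102). Lcn2, which binds the iron carriers of bacteria, and Cp, the ferroxidase ceruloplasmin, had changes of 2.65 ± 0.49 (adjusted p = 0.159) and 2.25 ± 0.57 (adjusted p = 0.228). Slc40a1, ferroportin, the exporter of iron from cells, was the 1 lower gene, at 1.27 and 1.19 on the STZ arrays, against 3.50 and 2.97 on the sham arrays, a change of −2.23 ± 0.45 (adjusted p = 0.219).

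Of 18 tested genes of the list of Alas1 regulators and haem-dependent enzymes, 1 was lower and 2 were higher at an unadjusted p under 0.05, with a median of −0.25 that turned to 0.20 without STZ array 2 (replicates 2 and 4). Ppargc1a, the coactivator known to raise Alas1 in mouse liver on fasting, had a log2 change of −2.22 ± 0.45 (adjusted p = 0.222), which was −1.37 after normexp with quantile normalization. Cyp2e1, a cytochrome P450, had a change of 1.89 ± 0.45 (adjusted p = 0.202). The nuclear receptor genes Nr1i3 and Nr1i2 had changes of 1.41 ± 0.54 (adjusted p = 0.381) and 0.79 ± 0.64 (adjusted p = 0.614). Among the sham samples, 2 of 4 had Nr1i3 well above background, and its change was 0.11 after normexp with quantile normalization.

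**Figure D4:**
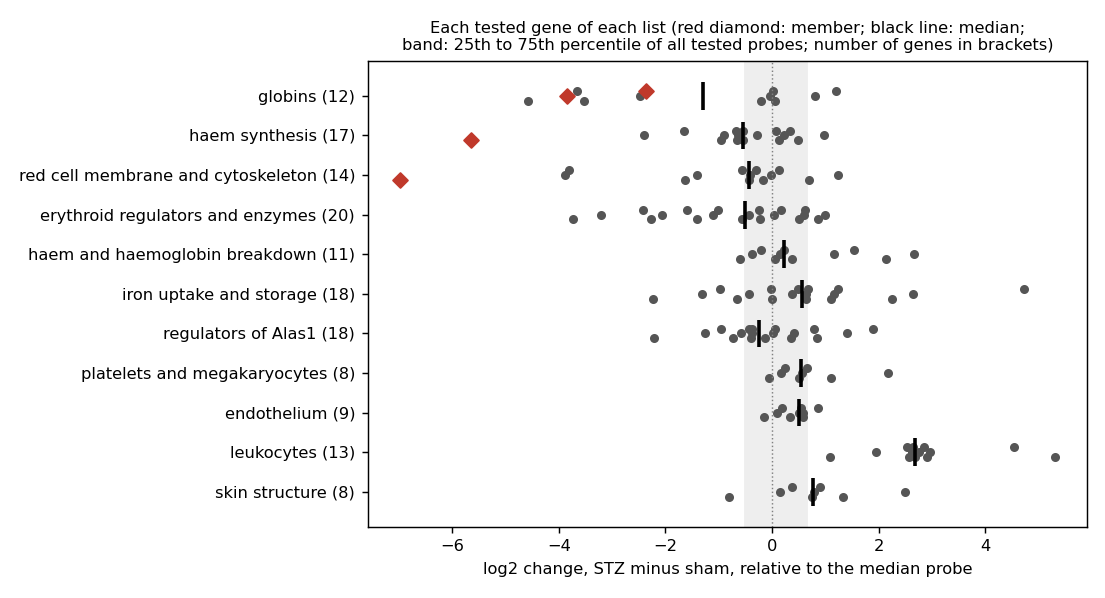
Log2 change of each tested gene of 11 lists (horizontal axis: STZ minus sham, relative to the median probe; black lines list medians; grey band the 25th to 75th percentile of all tested probes, −0.505 to 0.66; red diamonds the 4 measured genes). The medians run from −1.29 for the 12 globins to 2.68 for the 13 leukocyte genes. The globin median includes Hba-a1 and Hbb, which were chosen on this contrast, and was −0.13 without them. That of haem synthesis without Alas2 was −0.54.

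Markers of the other cells of blood and of vessels were not lower with the red cell genes. In the leukocyte list both STZ arrays lay above both sham arrays for 13 of 13 tested genes, against 26.8% of all tested probes. The median log2 change of that list was 2.68, and its mean level was 2.15 and 2.43 on the STZ arrays, against −0.44 and −1.18 on the sham arrays. Lyz2, lysozyme of myeloid cells, and Csf1r, the growth factor receptor of macrophages, had changes of 2.84 ± 0.65 (adjusted p = 0.202) and 1.09 ± 0.53 (adjusted p = 0.473). In the list of platelets and megakaryocytes 7 of 8 tested genes had a change above the median probe, against 50% of all tested probes. The median of that list was 0.54, with mean levels of −2.14 and −1.18 on the STZ arrays, against −2.43 and −2.68 on the sham arrays. Pf4, platelet factor 4, had a change of 2.17 ± 0.58 (adjusted p = 0.249) and Gp1bb, a chain of the von Willebrand factor receptor, one of 0.24 ± 0.59 (adjusted p = 0.775).

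In the endothelium list 8 of 9 tested genes had a change above the median probe, against 50% of all tested probes. The median of that list was 0.51, with mean levels of 0.64 and 1.34 on the STZ arrays, against 0.35 and 0.38 on the sham arrays. Plvap and Esam, proteins of the vessel lining, had changes of 0.51 ± 0.49 (adjusted p = 0.621) and 0.55 ± 0.43 (adjusted p = 0.585). In the list of skin structure 7 of 8 tested genes were above the median probe, against 50% of all tested probes, with a median of 0.77. Col3a1 and Col1a2 had changes of 0.37 ± 0.54 (adjusted p = 0.692) and 0.15 ± 0.50 (adjusted p = 0.783). These marker levels move with the treatment beside the red cell genes, and their part in the changes of Hba-a1, Hbb, Alas2 and Slc4a1 was not tested.

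The profile most like the mean of Hba-a1, Hbb, Alas2 and Slc4a1 over the 4 arrays was that of Hbb-bs, with a root mean square difference of 0.102 between the centred log2 levels. For comparison, Alas2 itself lay 0.523 and Slc4a1 1.284 from that mean. The next named genes were Slain1 (0.108), which promotes microtubule growth, Efhd1 (0.142), a calcium-binding protein of mitochondria, the hair keratin gene Krt39 (0.327) and Mlf1 (0.329). Slain1 had levels of −4.02 and −4.62 on the STZ arrays, against −0.06 and 0.72 on the sham arrays, a log2 change of −4.87 ± 0.52 (adjusted p = 0.102). The changes of Efhd1, Krt39 and Mlf1 were −4.64 ± 0.55, −4.26 ± 0.44 and −4.15 ± 0.53, with adjusted p from 0.102 to 0.126. With 4 arrays in 2 groups, a small difference says mainly that the gap between the groups was of like size. Slain1, Efhd1, Krt39 and Mlf1 were picked for that likeness, so their p-values carry no weight as evidence.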

How the data were processed

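Full-thickness skin RNA was amplified, labelled with Cy3 and hybridised, per the labels' protocols. Per the file headers, the intensity deposited by the authors is a processed signal from Agilent Feature Extraction 11.0.1.1, background-subtracted and with no scaling between arrays. The submitters' processing notes give version 11.0.0.1 instead. The deposited median spot and background intensities, uncorrected, served 1 alternative. The deposited 0 or 1 marks for background, saturation and outliers are other values of the scanner software.

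Log2 intensities of 42136 noncontrol spots were scaled to each file's 75th percentile and averaged per probe without outlier spots. Rescans were averaged into 2 arrays per group. Probes well above background (at least 50% of their spots) in at least 4 of 8 samples were tested, 21529 of 24684, with limma 3.58.1 in R 4.3.3 (lmFit and eBayes, two-sided, Benjamini-Hochberg over all tested probes), a setup checked on simulated data. Prior degrees of freedom were 3.01. An exact permutation test of 2 against 2 arrays cannot go below a p of 0.333. P-values measure only the spread between these arrays, and the number of arrays limits the precision.

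Genes were named by accession through RefSeq of GRCr8, matching 14294 of 24684 probes, while rn4, the build in the file headers, was not used. Upstream sequences are RefSeq's, matched by symbol for 6 globin genes. A gene's brightest probe was used. The members and the 11 gene lists were chosen with earlier results of these data known. Named genes were every member, up to 4 per pathway list with the smallest p, the enzymes of haem synthesis, Gata1, Klf1, Epor, Tfrc, Hmox1 and Ahsp, the 2 brightest per marker list, and the 5 nearest profiles, with exceptions stated beside them. Some genes that this rule names are not reported here, though the list counts include them.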

Additional observations from a re-analysis of the deposited data

How the results depend on the processing

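Hba-a1, Hbb, Alas2 and Slc4a1 kept their direction under the settings run, 15 besides the main one for Slc4a1, which does not pass the filter of well above background in all 8 samples, and 16 for the others. After normexp with quantile normalization the changes were −3.24 for Hba-a1 and −5.24 for Slc4a1, no longer beyond the −5.35 of Alas2, and with no filter that of Hbb was −2.51. Leaving out 1 array at a time gave −8.20 to −5.70 for Slc4a1 and −2.54 to −2.16 for Hbb.

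The list median of haem synthesis was −0.31 with quantile normalization and −0.29 with normexp added to it, that of iron uptake and storage 0.70 and 0.40 in these settings (0.42 with no filter), that of erythroid regulators −0.14 in both (against −0.50), that of the red cell membrane −0.54 and −0.13 (against −0.43), that of haem breakdown 0.61 and 0.49 (against 0.23), that of Alas1 regulators 0.04 after normexp with quantile normalization, and that of globins −0.13 without Hba-a1 and Hbb. With arrays left out in turn, medians ran from −0.89 to −0.16 (haem synthesis), −0.54 to −0.15 (red cell membrane), −0.76 to −0.50 (erythroid regulators), −1.62 to −1.24 (globins), 0.12 to 0.48 (haem breakdown), 0.43 to 0.82 (iron), −0.64 to 0.20 (Alas1 regulators), 0.15 to 0.64 (endothelium), 0.15 to 0.73 (platelets), 2.31 to 3.27 (leukocytes) and 0.38 to 1.06 (skin structure).

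Counts at an unadjusted p under 0.05 depended on single arrays, from 305 to 1094 lower and from 677 to 5380 higher, both lowest without sham array 2 and highest without STZ array 1, where 49 probes passed adjustment (0 to 49 over the 4). Without sham array 1 they were 367 and 1031. With all 8 samples taken as separate arrays 5236 passed (3319 lower and 5318 higher unadjusted), and with scan as a block 3532 (2878 and 4447), counts that take rescans for replicates. After quantile normalization 1149 were lower (48.2% of calls, against 32.5%), and after normexp with it 1354 (54.2%). The cause of these differences was not tested. Whether the replicate numbers pair the arrays cannot be told from 2 pairs. The correlation of deviations was −0.201, and 0.201 with the numbers crossed, which differ only in sign by construction. With the number as a replicate block 589 were lower and 1568 higher, and with the crossed numbers, chosen after seeing the data, 761 and 2082. Dim probes such as Slc4a1 on STZ array 2 lie near background, which limits their values.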
